A study of Mus musculus with 10 samples.

Results

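The genes described here encode the proteins of the mitochondrial ribosome. They were taken as every row of the deposited mouse liver table whose symbol is Mrpl (large subunit) or Mrps (small subunit) followed by a number, with an added letter allowed and -ps symbols left out. The rule gave 78 of 24972 rows, 49 with an Mrpl and 29 with an Mrps symbol, and used no measured value. The table holds 10 liver RNA libraries from tumour-bearing mice of wild-type genotype, made with a kit that reads the 3′ ends of mRNA. The 4 T cell-low libraries are from mice bearing the pancreatic ductal adenocarcinoma cell line 6419c1. The 6 T cell-high libraries are from mice with the line 6555c3, and both lines were derived from the KPC mouse model. Each class is therefore represented by a single line, so T cell class and line cannot be told apart. Livers of mice without a tumour are not analysed here, and no source used here gives the age of the mice. Whether every library came from its own mouse is not stated in the labels, so p-values reflect the scatter among the 10 libraries and this scatter may be technical.

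The mitochondrial ribosome translates the few proteins that mitochondrial DNA still encodes, all of them core subunits of the respiratory chain and ATP synthase. Its RNAs come from mitochondrial DNA, while all of its proteins are encoded in the nucleus, made in the cytosol and imported. Many of these proteins have bacterial relatives, and others were added during mitochondrial evolution and coat the outside of both subunits. In the structural nomenclature the proteins of symbols Mrps30 and Mrps18a sit in the large subunit, and Mrps36 is now known as a subunit of the 2-oxoglutarate dehydrogenase complex. Liver parenchyma is rich in mitochondria.

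Promoter letters are shown because nuclear genes of this group are textbook targets of NRF1, GABPA of the ETS family, and YY1. RefSeq promoters (GRCm38.p6, 250 bases before to 50 after the start) matched 69 of the 78 genes. Searched on both strands, GCATGCGC (core of the NRF1 site) was in 8 of the 69, or 11.6%, against 6.07% of the 8769 tested genes and 3.05% of all 27025 genes with a promoter in that table. CCGGAAG (ETS core) was in 26, or 37.7%, against 20.4% of tested and 9.93% of all genes. AAGATGGCG (YY1 core) was in 8, or 11.6%, against 3.81% and 1.64%. These are letter matches, and the motifs can overlap with others. The stretches below are the 150 bases before the first annotated exon of 3 members that were lower in T cell-low livers, and capitals mark matches to these motifs on either strand. Mrpl10 lies at chr11:97041410-97041559 (plus strand) and has 1 NRF1 match, Mrpl22 at chr11:58171511-58171660 (plus strand) has 1 ETS and 1 NRF1 match, and Mrps15 at chr4:126046775-126046924 (plus strand) has none of the 3 motifs in its window.
Mrpl10: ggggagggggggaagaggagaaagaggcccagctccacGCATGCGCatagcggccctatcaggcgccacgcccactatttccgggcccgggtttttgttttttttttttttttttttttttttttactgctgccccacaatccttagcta
Mrpl22: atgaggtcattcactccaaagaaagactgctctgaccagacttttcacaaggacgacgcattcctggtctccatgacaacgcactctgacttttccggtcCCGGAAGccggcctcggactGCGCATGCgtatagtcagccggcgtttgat
Mrps15: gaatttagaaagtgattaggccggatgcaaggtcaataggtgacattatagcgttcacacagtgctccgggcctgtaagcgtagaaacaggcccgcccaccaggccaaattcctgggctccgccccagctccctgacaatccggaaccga

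Values are scaled counts, the authors' gene counts divided by a factor for library depth. They summed to between 7000659 and 8257373 per library, and whole reads could not be recovered from them, so no counting interval is given. Each read comes from the 3′ end of a transcript, and levels are not per length, so they are not compared between genes. Of the 78 genes, 77 had a mean of at least 10 scaled counts and were tested among 11110 genes, and Mrps28 was not. Each fold change is the T cell-low level minus the T cell-high level on the log2(scaled count + 1) scale, which understates changes of low genes. A gene is called when limma's adjusted p, over all 11110 genes, is below 0.05. In bulk liver RNA, fewer cells of a type and less RNA per cell cannot be told apart. The summed hepatocyte markers, 9 of 10 in the table and none at 0, ranged from 472500 to 663900 scaled counts in T cell-low and from 299200 to 560700 in T cell-high libraries. The summed neutrophil markers ranged from 650.5 to 1770 against 39.81 to 210.7. Of the 10 listed, 4 had a mean of at least 10 and were tested, and all 4 were called higher. With T cell-high sums this low, markers could pass that filter mainly through the T cell-low group. The 4 calls are therefore no support beyond the sums. Summed stellate cell markers did not overlap between groups either, at 3840 to 6004 against 2851 to 3804 with 1 of 8 called higher. Summed pancreatic acinar markers lay apart the other way, at 113.4 to 211.7 against 251.1 to 473.4. Of the 6 listed, 2 were tested and 1 was called lower. Of the hepatocyte markers 2 of 9 were called higher, of the endothelial markers 2 of 8 and of the erythroid markers 1 of 5. Among all genes tested 5.39% were called higher. The endothelial sums overlapped between groups, at 2368 to 2870 against 2104 to 3029. The erythroid sums overlapped too, at 43060 to 98090 against 19680 to 51910. The part of these cell types in the results below was not tested.

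In T cell-low livers 7 members fell, 5 of the large and 2 of the small subunit. Of the 77 tested, 7 were thus called lower and 0 higher, which is 9.09% lower beside 7.39% lower and 5.39% higher among all genes tested, so the share called lower was near the background. At an unadjusted p below 0.05 the counts were 27 lower and 3 higher, or 35.1% and 3.9%, beside 18.5% lower and 16% higher among all genes. The fitted fold change was below 0 for 56 of the 77 (72.7%), beside 49.8% of all genes. The median log2 fold change was -0.41, with quartiles of -0.83 and 0.03, and the median of all genes was 0.003.

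**Figure D1:**
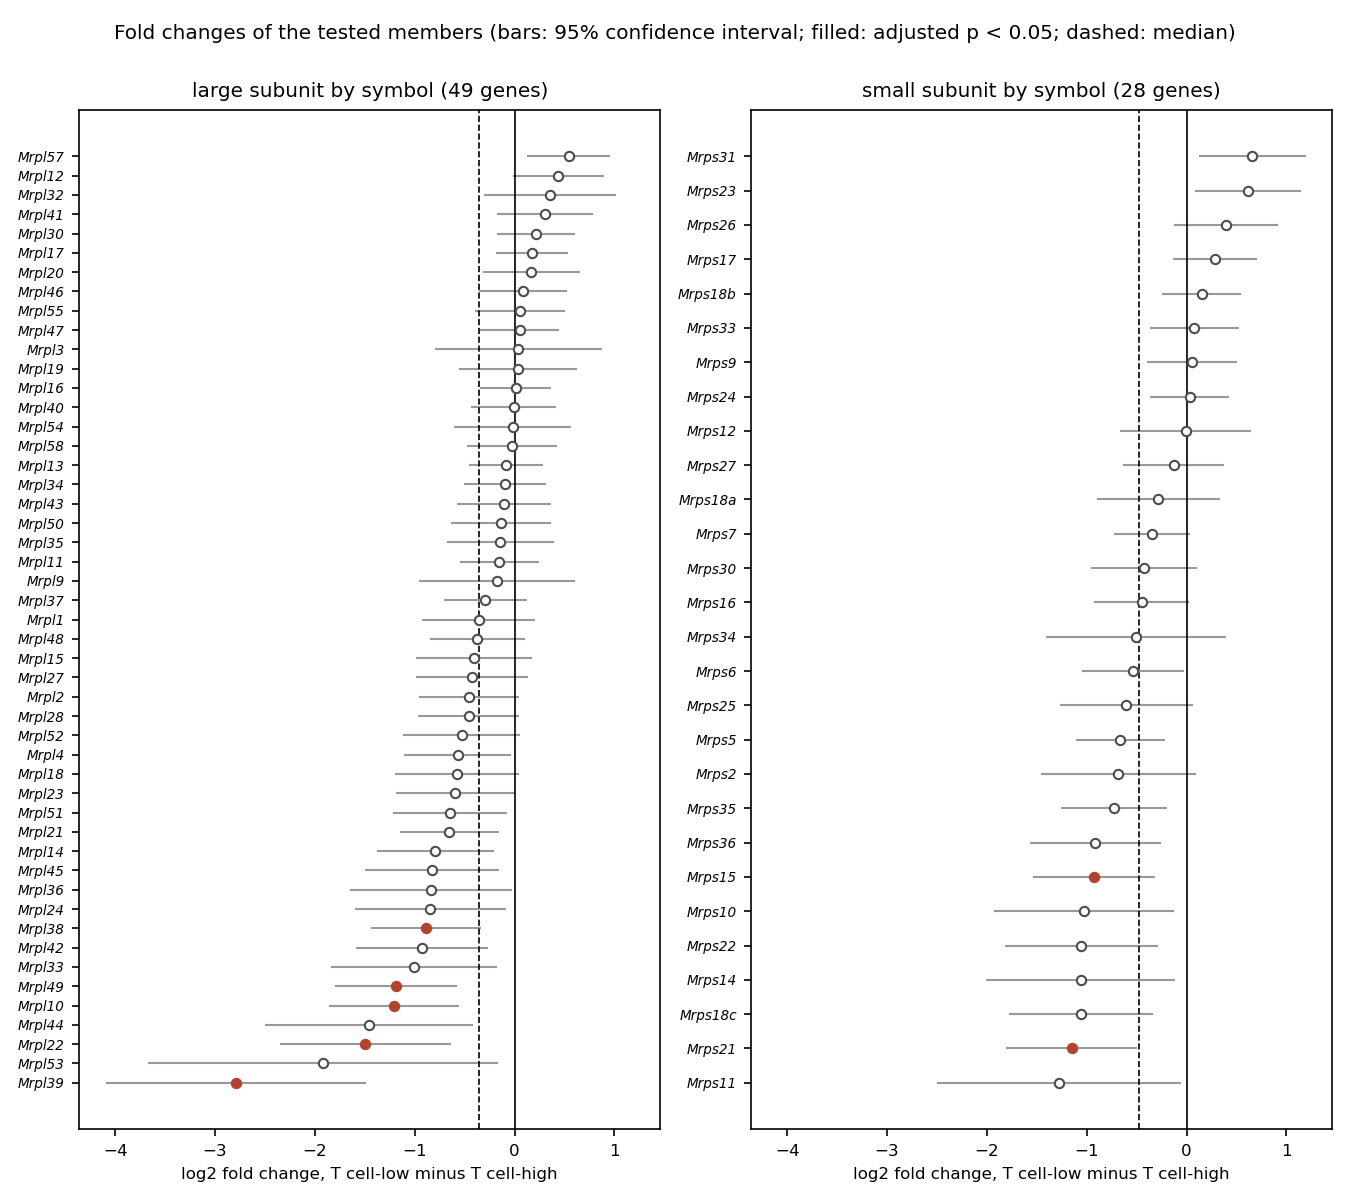
Log2 fold change (T cell-low minus T cell-high, horizontal axis) of each of the 77 tested members, with large subunit symbols on the left and small subunit symbols on the right. Bars are 95% confidence intervals, filled points are the 7 called members, and dashed lines mark the medians of -0.36 and -0.48.

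Of the stalk of the large subunit, which recruits translation factors, Mrpl10 fell while Mrpl12 and Mrpl11 did not pass the test. Mrpl10 (uL10m, the protein that anchors the stalk; chromosome 11, 97041560 to 97049213) measured 163, 65.5, 124 and 104 scaled counts in T cell-low libraries 1 to 4. It measured 304, 143, 271, 202, 368 and 289 in T cell-high libraries 1 to 6. The groups overlapped only where T cell-low 1 exceeded T cell-high 2. Mrpl10 fell by 1.21 on the log2 scale (SE 0.30, adjusted p = 0.028), and its last exon overlaps Gm11574 on the other strand. No source used here states the counting strand. Mrpl12 (bL12m, the mobile stalk protein) stood at 1372, 2995, 1842 and 2166 scaled counts in T cell-low libraries, and between 1311 and 1753 in T cell-high libraries. T cell-low 1 lay within the T cell-high range and the other T cell-low libraries lay above it. The fold change was 0.44 (SE 0.21, adjusted p = 0.162) and did not pass the test. Mrpl11 (uL11m, at the base of the stalk) averaged 263 ± 45.8 (SD, n = 4) against 290 ± 29.4 (SD, n = 6), with -0.15 as its fold change (adjusted p = 0.572). The difference between Mrpl10 and Mrpl12 was not tested.

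Around the exit tunnel, through which the new peptide leaves the large subunit, Mrpl22 was called and Mrpl45 was not. Mrpl22 (uL22m, which lines the tunnel; chromosome 11, 58171661 to 58179565) read 173, 36.8, 73.2 and 65.6 scaled counts in T cell-low libraries, against 259, 105, 279, 165, 263 and 272 in T cell-high ones. T cell-low 1 lay above T cell-high 2 and 4, and the other T cell-low libraries lay below all T cell-high libraries. The fold change was -1.49 (SE 0.40, adjusted p = 0.033). Because 49.9% of its 3′ end is identical to that of Gm6997, reads may be divided between the 2 genes, and this value is uncertain. Mrpl45 (mL45, which ties the ribosome to the inner membrane) read 360, 125, 158 and 163 against 407, 187, 370, 282, 385 and 408. Here T cell-low 1 sat among the T cell-high libraries, and the fold change of -0.83 (SE 0.31, adjusted p = 0.088) did not pass.

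The mitochondria-specific proteins of the large subunit included the largest fitted change of the members. Mrpl39 (mL39, a protein with a threonyl-tRNA synthetase-like fold; chromosome 16, 84717576 to 84735742) read 34.2, 3.62, 17.1 and 8.89 scaled counts in T cell-low libraries, against 98.1, 26.4, 154, 57.3, 187 and 118 in T cell-high ones. Only T cell-low 1 exceeded any T cell-high library, the second. Mrpl39 fell by 2.79 on the log2 scale (SE 0.60, adjusted p = 0.019). Mrpl49 (mL49; chromosome 19, 6053622 to 6057785) read 185, 78.8, 94.8 and 55 against 214, 221, 218, 231, 227 and 177. The T cell-high libraries lay close together apart from the sixth, which T cell-low 1 exceeded. Mrpl49 fell by 1.19 on the log2 scale (SE 0.28, adjusted p = 0.025), and its 3′ exon overlaps Syvn1 on the other strand. Mrpl38 (mL38, of the central protuberance; chromosome 11, 116131817 to 116138868) read 236, 169, 119 and 114 against 289, 185, 316, 266, 327 and 355. T cell-low 1 alone exceeded a T cell-high library, the second. Mrpl38 fell by 0.89 on the log2 scale (SE 0.26, adjusted p = 0.041).

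Below the threshold in the large subunit stood Mrpl44, Mrpl42 and Mrpl14. Mrpl44 (mL44, with a ribonuclease III-like fold) read 27.5, 5.73, 5.92 and 8.93 in T cell-low and from 17.4 to 54.9 in T cell-high libraries, so that only T cell-low 1 lay within the T cell-high range. Its fold change was -1.46 (adjusted p = 0.060). Mrpl42 (mL42) averaged 153 ± 87.6 (SD, n = 4) against 270 ± 64 (SD, n = 6), a fold change of -0.93 (adjusted p = 0.061). Mrpl14 (uL14m, at the face that meets the small subunit) averaged 558 ± 237 (SD, n = 4) against 925 ± 214 (SD, n = 6), a fold change of -0.80 (adjusted p = 0.066).

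Fold changes above or near 0 were found for other large subunit members. Mrpl57 (mL63) read 481, 663, 661 and 466 scaled counts in T cell-low libraries, against 367, 445, 375, 433, 295 and 410 in T cell-high ones. The lowest T cell-low library exceeded the highest T cell-high library, and yet the fold change of 0.54 (SE 0.19, adjusted p = 0.073) did not pass the adjusted test. Mrpl58 (mL62, a peptidyl-tRNA hydrolase that frees peptides from stalled ribosomes) had a fold change of -0.03, with a 95% confidence interval from -0.47 to 0.42. Mrpl34 (bL34m) had -0.10, with an interval from -0.51 to 0.32.

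**Figure D2:**
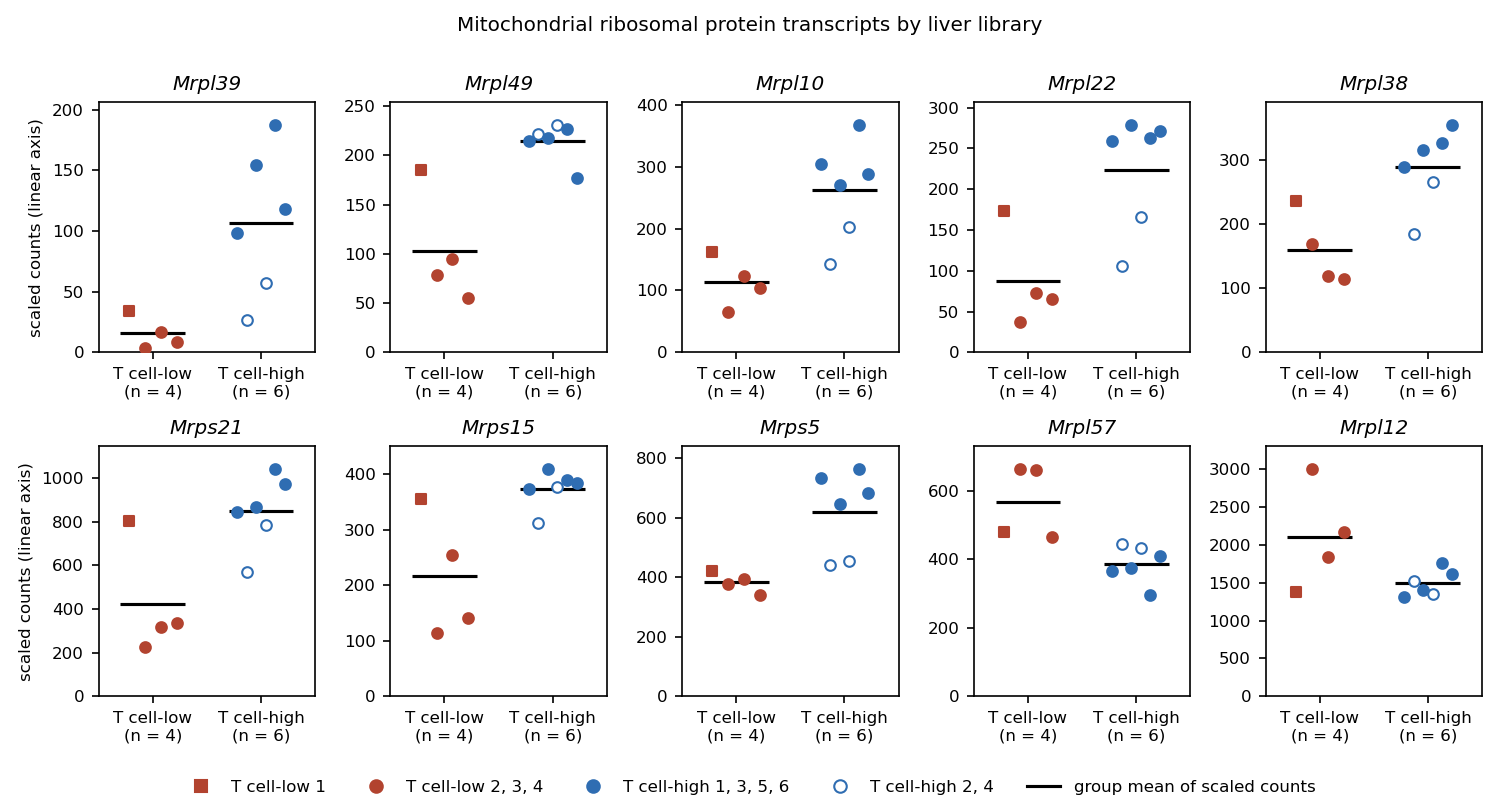
Scaled counts (vertical axes, linear and starting at 0, one scale per gene) of the 7 called members, then Mrps5, Mrpl57 and Mrpl12, in each of the 10 libraries, with black lines at the group means. Red points are T cell-low, with T cell-low 1 a square, and blue points are T cell-high, with libraries 2 and 4 open. For Mrpl39, T cell-low 1 is at 34.2 and the others are at 17.1 or less.

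In the small subunit, Mrps21 and Mrps15 were called. Mrps21 (bS21m; chromosome 3, 95862634 to 95871519) read 801, 228, 320 and 336 scaled counts in T cell-low libraries, against 845, 571, 867, 784, 1040 and 972 in T cell-high ones. T cell-low 1 exceeded T cell-high 2 and 4, and the other T cell-low libraries lay below the T cell-high range. It fell by 1.15 on the log2 scale (SE 0.30, adjusted p = 0.033). Mrps15 (uS15m, which binds the small subunit RNA; chromosome 4, 126046925 to 126055532) read 356, 114, 255 and 140 against 374, 311, 409, 376, 390 and 383. Of the T cell-low libraries only the first reached the T cell-high range. It fell by 0.93 on the log2 scale (SE 0.28, adjusted p = 0.049).

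Mrps5 (uS5m, near the channel through which mRNA enters) was the lower member with groups apart. Its values of 422, 377, 393 and 342 scaled counts in T cell-low lay below 733, 443, 646, 455, 764 and 683 in T cell-high libraries. The fold change was -0.66 (SE 0.21, adjusted p = 0.050), just past the threshold and therefore not called. Mrps5 and Mrpl57 made 2 of 77 members without overlap between groups, or 2.6%, beside 7.39% of all genes. Mrps28, which was not tested, read 7.78, 1.15, 0 and 2.47 in T cell-low and from 2.83 to 23.7 in T cell-high libraries.

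The paralogues that descend from bacterial S18 differed in value. Mrps18c (bS18m, at the S18 site of the small subunit) averaged 86.4 ± 36.9 (SD, n = 4) against 181 ± 70.2 (SD, n = 6), a fold change of -1.06 (SE 0.33, adjusted p = 0.053). Mrps18b (mS40) had a fold change of 0.15 (adjusted p = 0.577) and Mrps18a (mL66, in the large subunit) of -0.28 (adjusted p = 0.501). None of the 3 passed, and the differences among them were not tested. Mrps12 (uS12m, at the decoding centre) averaged 854 ± 250 (SD, n = 4) against 885 ± 397 (SD, n = 6), a fold change of -0.01 with an interval from -0.66 to 0.65. Mrps30 (mL65) had -0.43 (adjusted p = 0.231). Mrps36 had -0.92 (adjusted p = 0.060), and 31.5% of its 3′ end is shared with Gm11689, Gm19252, Gm3544, Mrps36-ps1 and Mrps36-ps2, so its value is uncertain.

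The large and small subunits were set against each other. Called lower were 5 of 49 large subunit members (10.2%) and 2 of 28 small subunit members (7.14%), with none called higher in either. Both shares are near the 7.39% called lower among all genes. The medians were -0.36 and -0.48, a large minus small difference of 0.12 that is a description with no test. Within each library, taken as the median of the members' log2 differences from their mean over T cell-high libraries, large minus small was -0.004, 0.19, 0.13 and 0.25 in T cell-low libraries 1 to 4. It ranged from -0.03 to 0.09 in T cell-high libraries, so that T cell-low 1 lay inside and the other T cell-low libraries above the T cell-high range. The sign turned without T cell-low 3, where the difference was -0.01. Placed by structure rather than symbol, the medians were -0.36 over 51 large and -0.51 over 25 small subunit genes.

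The members were also grouped by evolutionary origin, with subunits as in structures. In the small subunit, 15 tested proteins with bacterial relatives had a median of -0.66 (2 lower, 13.3%). The 10 mitochondria-specific proteins had a median of -0.03 (0 lower, 2 lower and 2 higher at an unadjusted p below 0.05 by limma). Mrps18b (0.15) was counted among these 10 although it descends from bacterial S18, and the median without it was not computed. Its paralogue Mrps18a was counted with the bacterial relatives of the large subunit. In the large subunit the medians were -0.28 for 31 proteins with bacterial relatives (2 lower, 6.45%) and -0.40 for 20 mitochondria-specific proteins (3 lower, 15%). Among all genes 7.39% were called lower, and each class share rests on 3 genes or fewer. The medians and shares are descriptions of the lists, and the differences among them were not tested.

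**Figure D3:**
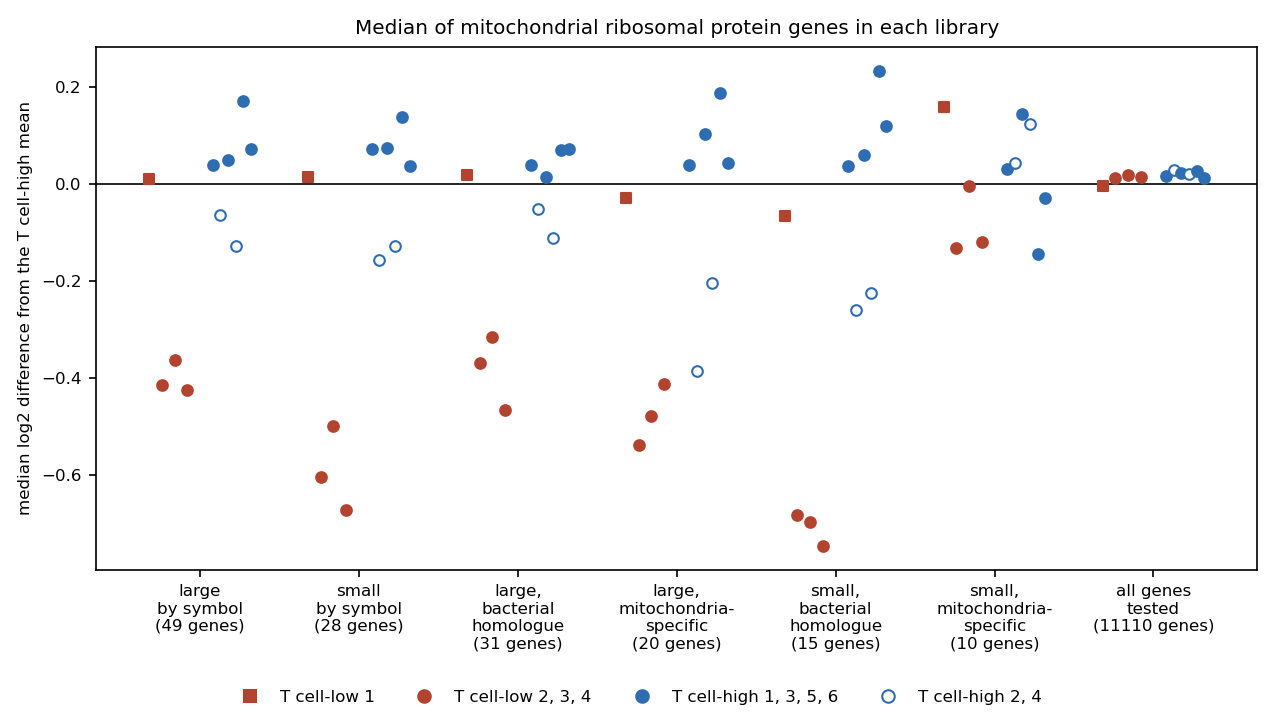
Median of log2 differences from the mean of the T cell-high libraries (vertical axis) over the members of each subunit or class in each library. Classes by origin use the subunit found in structures. T cell-low 1 stands at 0.009 for the large and 0.01 for the small subunit, and T cell-low 2, 3 and 4 stand between -0.67 and -0.36.

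The number of members called depended on single libraries. Over all 77 members the median differences were 0.009, -0.43, -0.44 and -0.48 in T cell-low libraries 1 to 4, and from -0.13 to 0.16 in T cell-high libraries. T cell-low 1 thus lay among the T cell-high libraries. Without it 29 members were called lower and 4 higher, or 37.7% and 5.19%, beside 17.2% lower and 15.5% higher among all genes, and all 7 called members were among the 33. The 4 higher were Mrpl12, Mrpl57, Mrps23 and Mrps31, named after their values were seen. Without T cell-high 2, 23 were lower and 1 higher, or 29.9% and 1.3%, beside 11.8% and 8.71%. Leaving out T cell-low 2 or 4 left 0 called (18 and 26 at an unadjusted p below 0.05 by limma), in fits that called 0.982% and 1.41% of all genes in either direction. Leaving out T cell-low 3, T cell-high 1, 3 or 5 left 1, Mrpl39, beside 4.58%, 3.9%, 3.42% and 3.63% of all genes. Leaving out T cell-high 6 gave 2, beside 4.02%, and T cell-high 4 gave 6, beside 9.85%. The number called over all genes thus fell and rose with the same libraries.

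The T cell-high libraries were themselves uneven, and an earlier examination of these data had set libraries 1, 3, 5 and 6 apart from 2 and 4. In 33 of 77 members (42.9%) all of libraries 1, 3, 5 and 6 lay above both 2 and 4, beside 21.8% of all genes. In 15 (19.5%) they all lay below, beside 20.9%. The first pattern held for 20 large and 13 small subunit members and for 5 of the 7 called members, the exceptions being Mrpl49 and Mrps15. The median fold change between T cell-low and T cell-high was -0.83 over those 33 members, and -0.03 over the 15. For all genes with the same patterns it was -0.59 and 0.31. The split uses T cell-high values that also enter the fold change, so no finding rests on these medians. Mrpl53 had the widest gap, with 467, 346, 571 and 302 scaled counts in libraries 1, 3, 5 and 6 beside 30.9 and 86.8 in 2 and 4. All of its 3′ end is shared with Gm42688. The summed hepatocyte markers moved with this split, at 299200 and 393700 in libraries 2 and 4 and from 478000 to 560700 in the others. With the split as a covariate, the fold change compares T cell-low with T cell-high 2 and 4 only. Limma then called 0 genes of any kind (1788 genes and 11 members at an unadjusted p below 0.05, 9 of the members lower). The members' median was -0.15.

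Transcript length moved with the fold changes too. The members' median transcript length was 1056 bases, beside 2106 for the 11021 tested genes with a length. The median fold change of all genes was -0.14 among the shortest 20% of transcripts and 0.20 among the longest 20%. The 36 members among that shortest 20% had a median of -0.44 and the 20 in the next -0.38, where all genes had -0.12. In the middle 20% the 10 members had -0.54 and all genes -0.005. The 8 members of the following group had -0.25 (all genes 0.03), and the 3 among the longest had 0.03. With the length trend removed, 48 of the 77 members were below 0 and 21 were lower at an unadjusted p below 0.05, in place of 56 and 27. In that fit Mrpl39, Mrpl49, Mrpl10, Mrpl22 and Mrps21 were called.

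The remaining machinery of mitochondrial translation had medians below 0 with few calls, and all changes in this and the next paragraphs are on the log2 scale. Of 5 ribosomal proteins with other symbols (median -0.78), Gadd45gip1 (mL64, also known as CRIF1) was the called gene, with a fold change of -0.89 (adjusted p = 0.029). Of 14 translation factors (median -0.54), Tufm, the elongation factor that delivers aminoacyl-tRNA, read 116, 43.2, 104 and 63.0 in T cell-low and from 131 to 243 in T cell-high libraries, and fell by 1.26 on the log2 scale (SE 0.29, adjusted p = 0.022). The groups of Tufm did not overlap. Over the 14 factors the library medians were -0.062, -0.951, -0.055 and -1.031 in T cell-low libraries 1 to 4. They ran from -0.061 to 0.079 in T cell-high libraries, so T cell-low 1 and 3 stood in or at the edge of that range. Of 20 aminoacyl-tRNA synthetases and related enzymes (median -0.44), Gatb, of the amidotransferase that makes glutaminyl-tRNA, fell by 1.60 (adjusted p = 0.018). Assembly factors (25 tested, median -0.12) held genes of both directions. Mpv17l2 rose by 1.21 and Trub2, a pseudouridine synthase, by 0.96, while Mterf4, which acts with the rRNA methyltransferase NSUN4, fell by 0.90. Of 13 genes of mitochondrial DNA expression (median -0.08) limma called 0 (1 at an unadjusted p below 0.05). In the order given, the shares called lower in these lists were 20%, 7.14%, 5%, 4% and 0%, beside 7.39% among all genes. The 20% is 1 of 5 genes.

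Among genes whose products work beside those of the ribosome, the respiratory subunits held the most calls. Of 74 nuclear-encoded subunits of the respiratory chain and ATP synthase, 20 were called lower (27%, beside 7.39% of all genes) and 0 higher, with a median of -0.61. T cell-low 1, at a library median of -0.29, lay inside the T cell-high range of -0.33 to 0.25. The count called lower was 7 without the filter on low values, 10 with the length trend removed, and 40 with T cell-low 1 or T cell-high 2 left out. Leaving out T cell-low 2 or 4, or T cell-high 3 or 5, gave 0, leaving out T cell-low 3 or T cell-high 1 gave 1, and leaving out T cell-high 6 gave 2 (33 to 43 lower or higher at an unadjusted p below 0.05 by limma in these fits). Each gene named from this and the other lists lost its call when T cell-low 2 or T cell-low 4 was left out. Ndufa9 of complex I fell by 0.94 (adjusted p = 0.021), and Uqcrb of complex III by 0.83 (adjusted p = 0.024). The difference in share between them and the ribosomal proteins was not tested. Import genes (29 tested, 2 lower or 6.9%, median -0.43) included Tomm6 and Tomm7 of the outer membrane translocase, at -1.14 and -0.87. Beside 7.39% of all genes, the import share was near the background. In this list too T cell-low 1, at a library median of -0.23, lay inside the T cell-high range of -0.33 to 0.21. Chaperones and proteases (15 tested, 2 lower or 13.3%, median -0.43) included Trap1 at -1.06 and Lonp1, the matrix protease, at -1.53. Lonp1 read 94.7 to 136 scaled counts in T cell-low libraries, and 159 and 169 in T cell-high 2 and 4. The other T cell-high libraries read 420 to 608. The 15 mitochondrially encoded genes were not analysed here, so the products of this ribosome have no value.

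Regulators of mitochondrial biogenesis and the cytosolic ribosome had medians above 0. The 9 regulators had a median of 1.03, with library medians of 0.069, 2.16, 0.804 and 1.835 in T cell-low libraries 1 to 4. T cell-high libraries ran from -0.404 to 0.282, so T cell-low 1 lay inside their range. Pprc1, a coactivator related to PGC-1, read 24.8, 56.5, 23.9 and 84.4 in T cell-low and from 8.69 to 16.7 in T cell-high libraries. It rose by 1.71 (adjusted p = 0.025). Myc read 3.47, 42.6, 24.9 and 120 against 0 to 8.27, with T cell-low 1 inside the T cell-high range, and was called at 2.96 (adjusted p = 0.048). Its T cell-high mean of 3.67 is under the filter of 10, so it was tested only through the group where it is high and had to differ. The call ended without the filter (adjusted p = 0.058) and with a pseudocount of 0.5 (adjusted p = 0.054). With a mean of at least 50 required, neither Pprc1 nor Myc was tested, and 0 regulators were called. Of 81 tested cytosolic ribosomal protein genes, 6 were called higher and 0 lower, with a median of 0.15. Among all genes 5.39% were called higher, so the share called in this list was near the background. The number called higher was 1 without the filter on low values and 13 with the length trend removed. Rpsa rose by 0.78 and Rps14 by 1.04. In this list T cell-low 4 stood at 0.51, and T cell-low 1, 2 and 3 stood between -0.04 and 0.05, within the T cell-high range of -0.28 to 0.23.

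**Figure D4:**
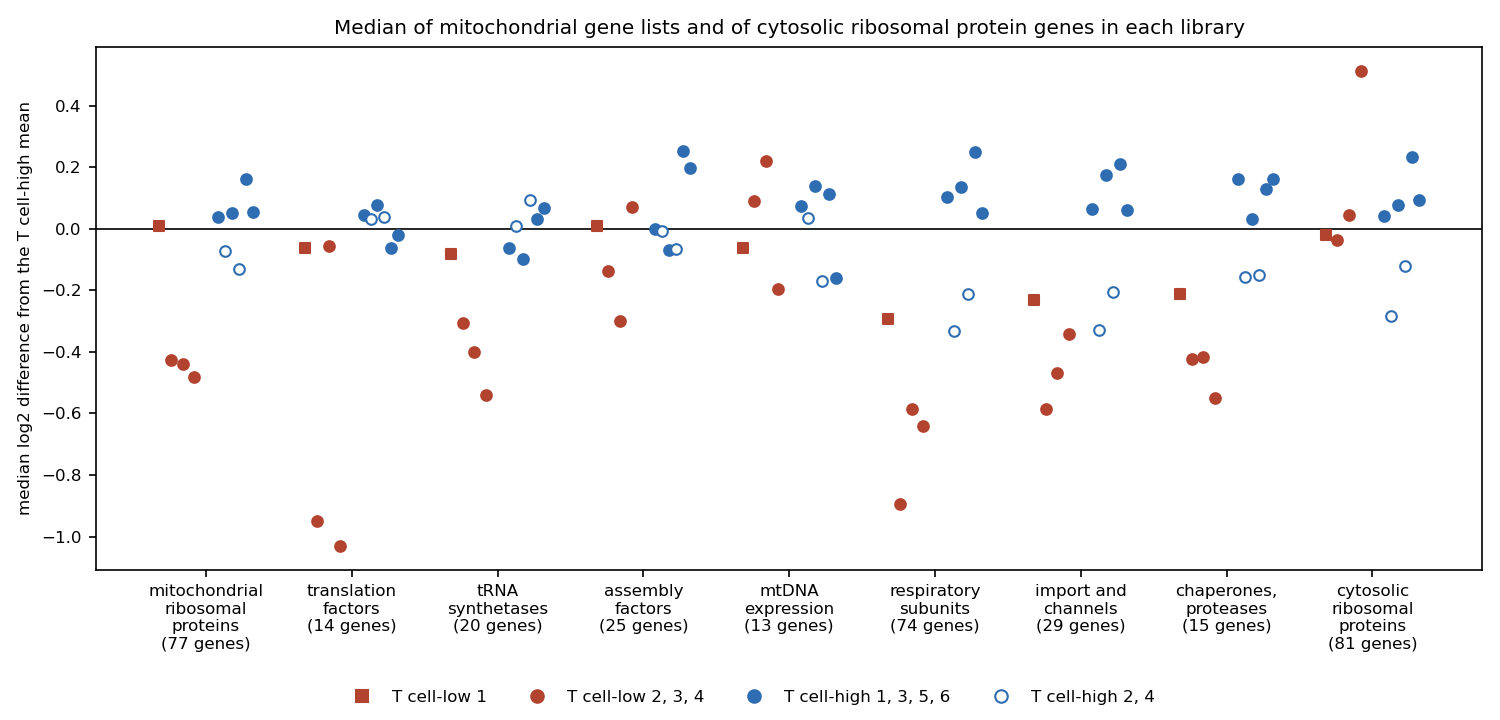
Median of log2 differences from the mean of the T cell-high libraries (vertical axis) in each library for the ribosomal protein members and 8 other gene lists. The respiratory subunits stand between -0.89 and -0.29 in the 4 T cell-low libraries, and the cytosolic ribosomal proteins between -0.04 and 0.51. In T cell-high libraries the respiratory subunits stand between -0.33 and 0.25, so that T cell-low 1, at -0.29, lies inside that range.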

How the data were processed

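The 10 mouse liver RNA libraries were made with a 3′ mRNA kit (QuantSeq FWD), per the labels' protocols. STAR, DESeq2 and mm10 are named in the submitters' processing notes. No source used here names the annotation or the counter. In the deposited table each gene and library has a signal value, a gene count that the authors scaled for depth. From it, log2(value + 1) was fitted by group with limma 3.58.1 (R 4.3.3, trend option, two-sided), over genes with a mean of at least 10, and p-values were adjusted by Benjamini-Hochberg over all 11110 genes. The fit was also run on simulated data drawn with independent noise in each gene and library. Such data lack differences shared by genes of a library, so that run does not bear on how calls depend on single libraries. Positions are from GENCODE vM21 (GRCm38). The members and lists were chosen with earlier results of these data known. Genes named are all called members, the 3 of highest mean and the 3 next in adjusted p in each subunit, members without overlap, members of set roles, untested members, and up to 3 called genes per other list. Normalization, filter, pseudocount, robust fitting, replicate block, library set and each library's removal were varied, and transcript length, a subset of 6 libraries and shared 3′ ends were added after seeing the data.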

Additional observations from a re-analysis of the deposited data

Results flagged for a closer look

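Libraries far from the rest of their group were looked for in 56 sets of values (24 named members and 4 medians, in each group), and 7 were found, where chance gives about 1 in 20 sets. In 5 of them the library was T cell-low 1, which stood above the other 3 T cell-low libraries: Mrpl44 at 27.5, Mrpl42 at 283 and Mrpl45 at 360 scaled counts, the median of all members at 0.00949 and the median of the large subunit at 0.00949 on the log2 scale. These 5 share a library and are not independent. The other two were low T cell-high libraries, Mrpl49 in T cell-high 6 at 177 scaled counts and Mrps15 in T cell-high 2 at 311 scaled counts.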

How the results depend on the processing

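The replicate numbers did not pair the libraries. Taken as each gene's log2 deviation from its group mean, same-numbered libraries correlated at 0.10, 0.21, -0.10 and -0.15. On that measure, 1 of 4 T cell-low libraries correlated best with its own number. With the replicate block, 193 genes and 1 member (1 large, 0 small subunit) were called by limma, 0 respiratory subunits (33 at an unadjusted p below 0.05) and not Myc (adjusted p = 0.161). With the library set as covariate, and within the 6 libraries outside the set (T cell-low 1 to 4, T cell-high 2 and 4), limma called 0 genes (1788 and 1027 at an unadjusted p below 0.05) and 0 members, large or small (11 and 5 unadjusted). In both fits the fold change compares T cell-low with T cell-high 2 and 4 only. They give the same fold change for each gene tested in both, so they are not separate checks. The medians were -0.15 for the members and -0.14 for the large subunit. Small subunit members called were 1 without the filter, with a pseudocount of 0.5 or with the length trend removed, and 4 with a mean of at least 50. Leaving out one library at a time gave 109 to 3633 genes, 0 to 33 members, 0 to 20 large and 0 to 13 small subunit members called. Medians then ran from -0.461 to -0.249 (members), -0.455 to -0.208 (large) and -0.70 to -0.344 (small), and large minus small from -0.00973 (without T cell-low 3) to 0.283. With shared 3′ ends left out it was 0.268. Fold changes near 0 changed sign. Leaving out one library gave -0.251 to 0.00902 for Mrpl34, -0.112 to 0.0936 for Mrpl58 and -0.143 to 0.217 for Mrps12. With the length trend removed they were 0.11, 0.00621 and 0.207, and Mrpl11 was 0.0577. The cause was not tested. Read depth is unknown, which limits statements on low genes such as Mrps28 and Mrpl44.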
